A study of Mus musculus with 4 samples.

Results

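Cytochrome P450 genes were examined in 4 RNA sequencing libraries labelled as mouse tumours. A P450 gene was taken as every row of the deposited gene table whose symbol begins with Cyp followed by a digit and which held at least 10 expected counts in at least 1 library. Of 24444 genes in the table, 105 were P450 rows and 59 of these met the rule, and the 59 genes fell into 26 subfamilies. By their labels, 3 libraries were CT26-shppp2r1a tumours, grown from CT26 cells in which a small hairpin RNA (shRNA) targeted Ppp2r1a, with treatment given as knockdown ppp2r1a and numbers 1, 2 and 3, and 1 library was a CT26-scr tumour, grown from cells with the scrambled hairpin (scr). CT26 is a colon carcinoma line of BALB/c mice, Ppp2r1a encodes the scaffold subunit of the phosphatase PP2A, and all the tumours were harvested at about 70 mm3. No antibody or drug is named for these 4 tumours, their age is not given in the labels, and the labels do not say whether the tumours grew in separate mice, so a p-value here reflects no more than how far these libraries differ among themselves. With a single scr library, a feature of that tumour and an effect of the hairpin cannot be told apart.

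P450 enzymes are haem proteins of the endoplasmic reticulum and of mitochondria that insert an oxygen atom into a substrate with electrons passed on by P450 oxidoreductase or by ferredoxin. In the gut, enterocytes of the villus carry most of the P450 that meets swallowed drugs, plant compounds and fatty acids, and nuclear receptors such as the pregnane X receptor, the constitutive androstane receptor, the vitamin D receptor and PPARα, together with the aryl hydrocarbon receptor, adjust which enzymes are made. Other family members have fixed tasks in the making of cholesterol, bile acids, steroid hormones, vitamin D and retinoids, often in organs other than the gut.

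The libraries did not look like a pure carcinoma line. Summed over 10 enterocyte markers (Apoa4, Fabp2, Sis, Lct and others), the level in TPM (a share of the transcripts of a library after correction for gene length) was 19514, 49396 and 80334 in shppp2r1a libraries 1, 2 and 3 and 80705 in scr. Some bowel segment markers set the libraries apart as well. Fabp6, the bile acid binding protein of the distal ileum, was at 2.44, 5.13 and 0.57 TPM against 3435 TPM in scr, whereas Car1, a carbonic anhydrase of the large bowel, was at 1439, 418 and 4.76 TPM against 0 TPM in scr. Slc10a2, the other distal ileum marker listed, was at 9.33, 4.34 and 1.25 TPM against 12.5 TPM in scr, with library 1 closest to scr. Of the 7 large bowel markers in the table, Aqp4 had the same order as Car1. Slc37a2 was below scr in all 3, at 2.12, 3.09 and 1.95 against 5.54 TPM. Aqp8, Slc26a3, Car4 and Tmigd1 were lower in library 3 than in scr. The neutrophil markers summed to 699.8, 697 and 13.2 TPM against 0.58 TPM, the macrophage markers to 1102, 771 and 202 TPM against 213 TPM, and 8 general epithelial markers to between 14131 and 16319 TPM in all 4 libraries. Libraries 1 and 2 therefore stood apart from library 3, and scr stood apart from all 3 by Fabp6. Total expected counts ran from 24726440 to 28950004 per library. Ppp2r1a itself was at 40.2, 29.8 and 22.3 TPM in the shppp2r1a libraries and 75.1 TPM in scr (log2 fold change -1.62 ± 0.26 SE), lower in 3 of 3 shppp2r1a libraries, although it did not pass the edgeR test (adjusted p = 0.782, and 0.0244 to 0.808 over the alternatives).

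As a whole the P450 family made up less of the RNA in shppp2r1a libraries 1 and 2 than in scr, and about as much in library 3. The 59 genes summed to 2462, 5388 and 8819.9 TPM in shppp2r1a libraries 1, 2 and 3 and 8039 TPM in scr. Relative to scr the sums were 0.306, 0.67 and 1.1, and the sums of the 10 enterocyte markers were 0.242, 0.612 and 0.995 of that in scr, so both sums were lowest in library 1. In RNA from whole tissue, fewer cells of a type and less RNA per cell cannot be told apart. Library 1 was the single lowest library for 33 of the 59 genes by TPM and the highest for 15. The scr library was the highest for 20 genes, library 3 for 18 and library 2 for 6.

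**Figure D1:**
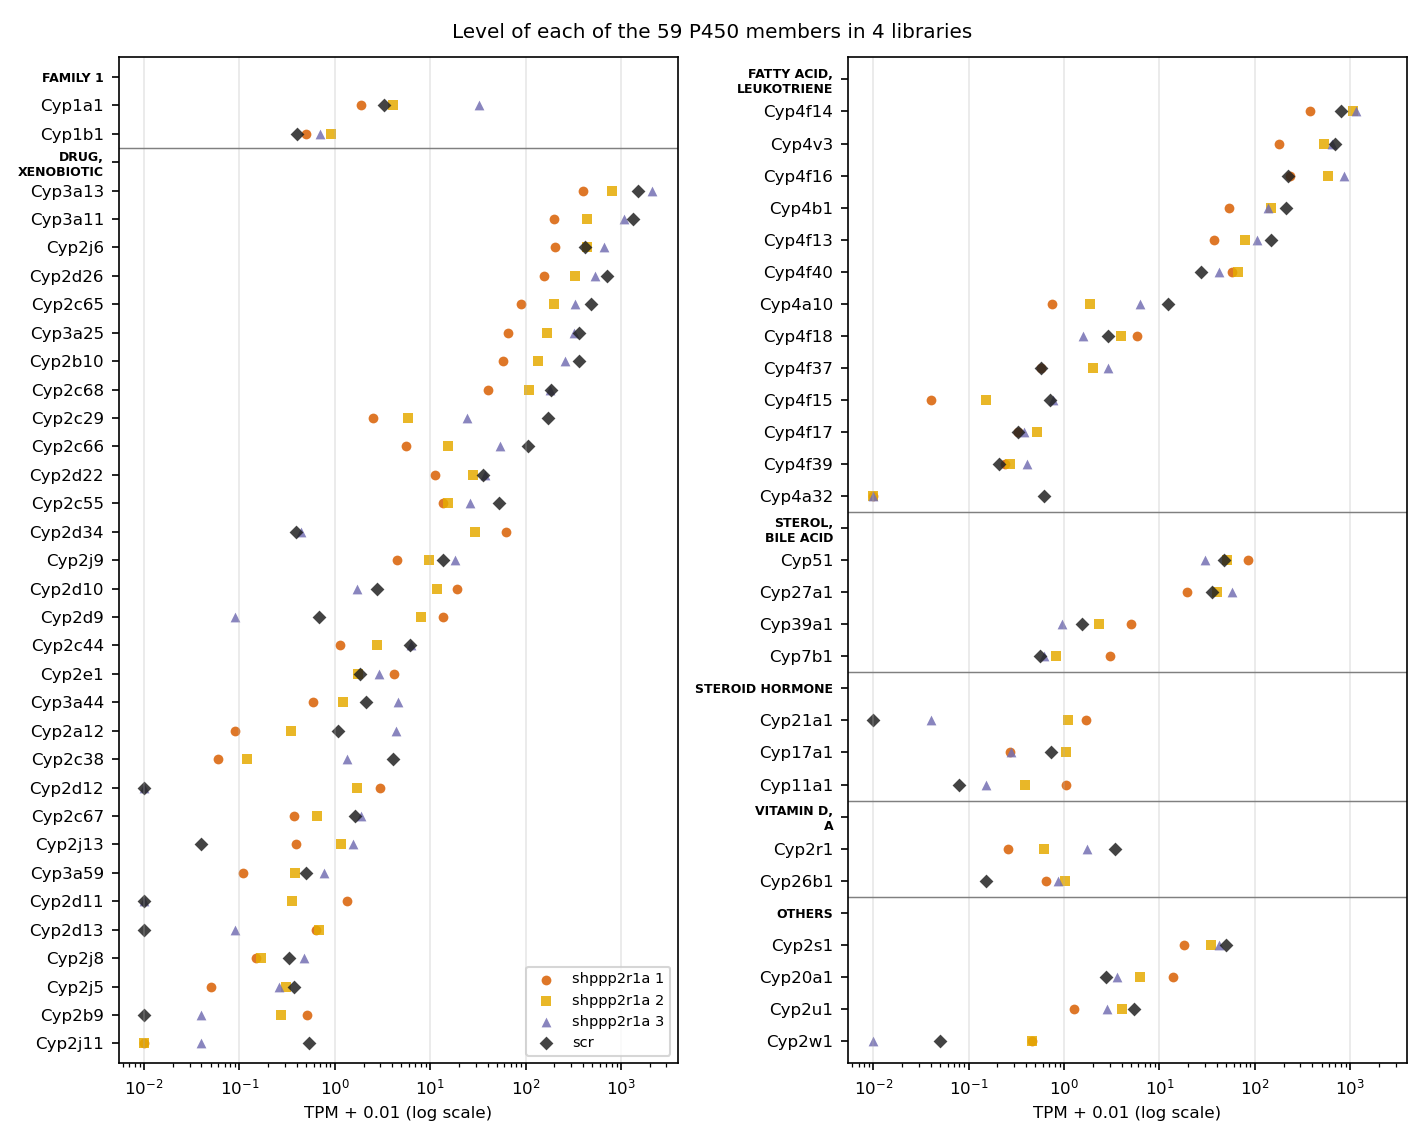
Level of each of the 59 P450 genes in the 4 libraries, as TPM + 0.01 on a log axis, grouped by role and ordered by mean level. Each symbol is 1 library. For the drug-metabolising genes over 100 TPM in a library the circles of shppp2r1a library 1 lie farthest to the left and the diamonds of scr farthest to the right, except for Cyp3a13 and Cyp2j6, where library 3 lies farthest to the right, while for several Cyp2d genes and for Cyp20a1 library 1 lies farthest to the right.

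Levels ran from under 1 TPM up to 2132 TPM (Cyp3a13 in library 3), with 31 genes under 10 TPM in every library and 15 over 100 TPM in at least 1. Just inside the count rule lay Cyp2j8 and Cyp2w1 with a highest count of 11 and Cyp2b9 and Cyp4f17 with 14, and just outside lay the pseudogene Cyp4b1-ps2 with 9.02, Cyp2c40 with 8.92, Cyp2c70 with 8 and Cyp2f2 with 7. All 59 genes passed the filter on low counts used for testing. None passed the edgeR quasi-likelihood test of shppp2r1a against scr after Benjamini-Hochberg adjustment over 15246 genes (0 of 59, against 0.0% of all genes tested), and their adjusted p ran from 0.782 to 0.986. At an unadjusted p under 0.05 there were 6 P450 genes (Cyp4a32, Cyp2j11, Cyp2c29, Cyp2c55, Cyp26b1 and Cyp2j13), 10.2% of the family against 3.65% of all genes tested. Cyp4a32 (0, 0 and 0 counts against 19.3) and Cyp2j11 (0, 0 and 1 against 17) met the count rule only in scr. Cyp2j13 (25, 83 and 111 against 2) met it only in shppp2r1a libraries. The rule therefore bears on the 10.2%. DESeq2 called 1 P450 gene, Cyp2d34, against 1.17% of all genes.

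The calls depended on library 3. Without it, edgeR called 13 of the 58 P450 genes tested (22.4%) against 7.33% of all genes, of which 5 were higher (4.95% of all genes were) and 8 lower (2.38% of all genes were). The higher genes were Cyp2d9, Cyp2d10, Cyp2d12, Cyp2d34 and Cyp21a1, and the lower genes were Cyp2c29, Cyp2c38, Cyp2c55, Cyp2c66, Cyp2j11, Cyp2r1, Cyp4a10 and Cyp4a32. Among these, Cyp2d12 and Cyp21a1 met the count rule only in shppp2r1a libraries, and Cyp2j11 and Cyp4a32 only in scr. Without library 2, edgeR called Cyp2c29 and Cyp2d34 (1.07% of all genes were called), and without library 1 it called no P450 gene and no gene of any kind (0.0%, with 671 genes at an unadjusted p under 0.05). Each of these fits estimated its error from the 2 shppp2r1a libraries left in it.

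By CPM after TMM scaling (counts set to the library total and adjusted so that most genes centre on no difference), all 3 shppp2r1a libraries lay below scr for 21 of the 59 genes (35.6%, against 27.7% of all genes) and above it for 10 (16.9%, against 31.8%). Of the 15 genes over 100 TPM in a library, 14 had a fitted level below scr and 11 had all 3 libraries below it. Their median log2 fold change was -1.16. Among them, Cyp2c29 and Cyp2c66 passed 100 TPM only in scr, at 173 and 106 TPM. The place of these genes below scr therefore follows in part from the filter. The share of all genes under the same filter was not computed. Over the 31 genes under 10 TPM the median was 0.29, with 7 below and 7 above. The median over all 59 was -0.15 beside 0.06 over all genes tested. Scaling by library size alone moved these medians to 0.03 and 0.40. Taken library by library, the median log2 ratio to scr over the 59 genes was -1.65 in library 1, -0.48 in library 2 and 0 in library 3, beside 0.07, 0.04 and 0.01 over all genes.

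**Figure D2:**
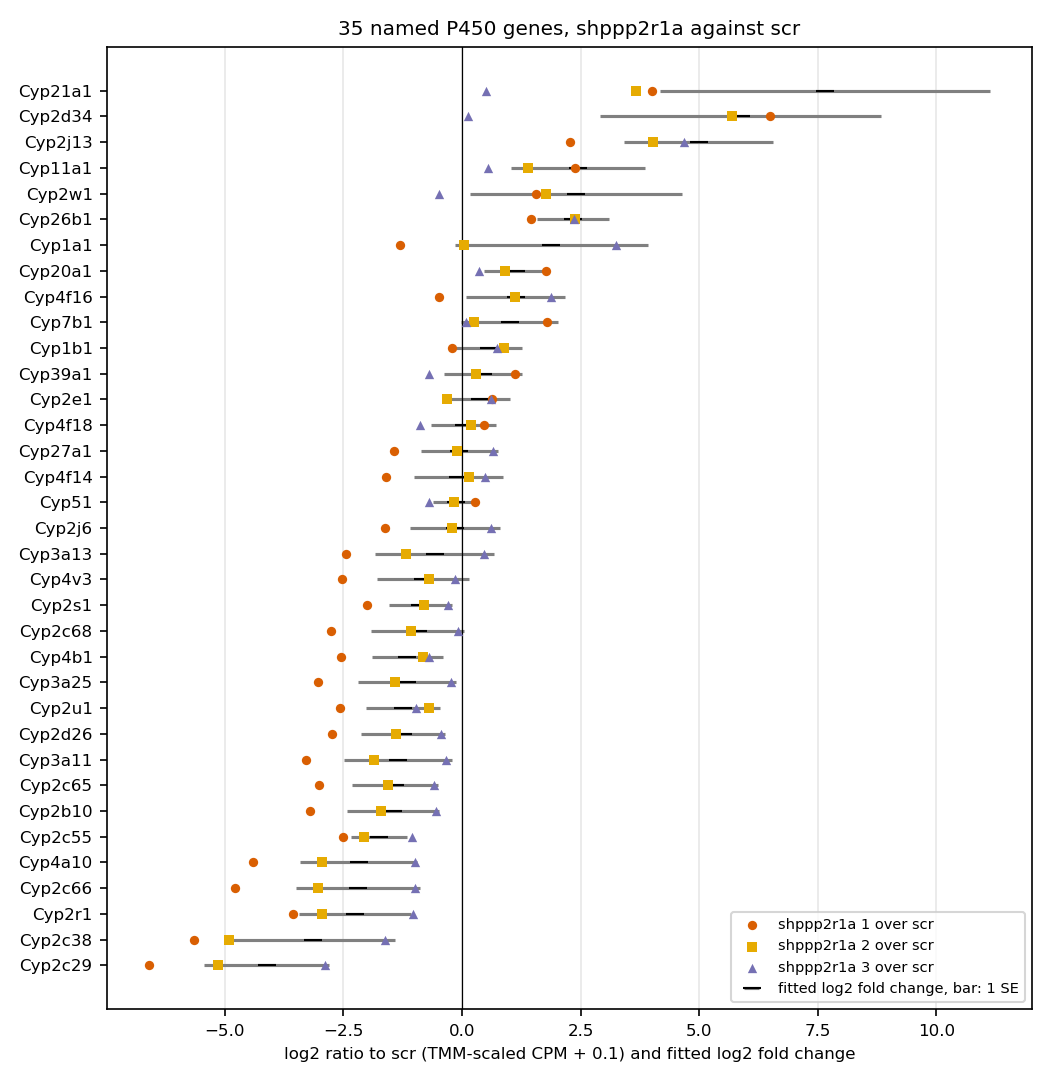
Log2 ratio of each shppp2r1a library to scr for 35 named P450 genes (symbols, from TMM-scaled CPM + 0.1) and the log2 fold change fitted by edgeR with 1 SE (black tick and grey bar). Cyp2c29 and Cyp2c38 lie farthest to the left and Cyp21a1 and Cyp2d34 farthest to the right, and the fitted value of Cyp21a1, which had no counts in scr, depends on the prior count.

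The Cyp3a subfamily, which in mice as in humans oxidises a wide range of drugs and bile acids under control of the pregnane X receptor, held the most abundant gene. Cyp3a13, the main Cyp3a enzyme of mouse intestine, was at 404, 806 and 2132 TPM in shppp2r1a libraries 1, 2 and 3 and 1499 TPM in scr. Library 3 was above scr and the other two were below it, and the fitted log2 fold change was -0.58 ± 1.25 (SE). Cyp3a11, the mouse gene most often set beside human CYP3A4, was at 199, 442 and 1082 TPM against 1324 TPM, and Cyp3a25 at 65.1, 166 and 322 TPM against 367 TPM. For both, all 3 shppp2r1a libraries were below scr and the groups did not overlap, with log2 fold changes of -1.36 ± 1.14 and -1.16 ± 1.03. Cyp3a44 and Cyp3a59 stayed under 5 TPM and overlapped. The fitted value was below 0 for 5 of the 5 Cyp3a genes with TMM scaling (median -0.58), beside 7096 of all 15246 genes tested. It was below 0 for 4 of 5 when scaled by library size alone, and without library 1 for 3 of 5.

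The make-up of the subfamily was steadier than its amount. Cyp3a11 stood at 0.492, 0.548 and 0.508 of the Cyp3a13 level in the 3 shppp2r1a libraries and at 0.883 in scr, which set scr apart by more than the spread of the 3. Cyp3a25 was at 0.161, 0.206 and 0.151 of Cyp3a13 against 0.245. Together the 5 genes took 27.2, 26.3 and 40.2% of all P450 TPM in libraries 1, 2 and 3 and 39.7% in scr, so that library 3 and scr were alike in this share and libraries 1 and 2 lay lower.

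Cyp2c genes, which turn arachidonic acid into epoxides and hydroxy acids and also take drugs as substrates, showed the most uniform pattern. The fitted level was below scr for 8 of 8 genes under each of the 10 settings run, beside 7096 of all 15246 genes in the main fit. By TMM-scaled CPM 7 of 8 had all 3 shppp2r1a libraries below scr (27.7% of all genes did). By TPM 6 of 8 did (15.95% of all genes). Cyp2c65, the most abundant Cyp2c gene here, was at 88.8, 199.7 and 331 TPM against 486 TPM in scr (log2 fold change -1.42 ± 0.90 SE). Its neighbour Cyp2c66 was at 5.5, 15.5 and 54.4 TPM against 106 TPM (-2.20 ± 1.30). Cyp2c68 was at 40.1, 108 and 181 TPM against 186 TPM (-0.94 ± 0.98), and library 3 was close to scr. All 3 libraries were below scr for each of these genes, and library 1 was lowest in each.

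Cyp2c29, an epoxygenase that is abundant in mouse liver, departed most from the others. It was at 2.51, 5.84 and 24.1 TPM in shppp2r1a libraries 1, 2 and 3 and at 173 TPM in scr, 15.98 times the mean of the 3 (log2 fold change -4.12 ± 1.31 SE). Even library 3, the highest of the 3, was at 0.139 of scr. Cyp2c38, also an epoxygenase, was at 0.05, 0.11 and 1.34 TPM against 4.08 TPM (-3.13 ± 1.73), again with the groups apart and library 3 the highest of the 3. Cyp2c55, which makes hydroxylated arachidonic acid in mouse colon, was at 13.7, 15.3 and 26.4 TPM against 53.1 TPM (-1.75 ± 0.59). In edgeR without library 3 these genes passed the threshold at adjusted p of 0.000257, 0.000657 and 0.00353, and over all alternatives the adjusted p ran from 0.000257 to 0.956 for Cyp2c29, 0.000657 to 0.995 for Cyp2c38 and 0.00353 to 0.995 for Cyp2c55. The remaining genes were low, with Cyp2c44 at 1.13, 2.79 and 6.26 TPM against 6.17 TPM and Cyp2c67 at 0.36, 0.64 and 1.87 TPM against 1.62 TPM.

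Set against Cyp2c65 in the same library, Cyp2c29 stood at 0.0283, 0.0293 and 0.0728 in shppp2r1a libraries 1, 2 and 3 and at 0.356 in scr, while Cyp2c68 stood at 0.451, 0.539 and 0.547 against 0.383. Cyp2c29 was thus lower relative to a gene of its own cluster and Cyp2c68 higher. Cyp2c66 lay at 0.0619, 0.0774 and 0.164 of Cyp2c65 against 0.217. The Cyp2c share of all P450 TPM was 6.18, 6.45 and 7.11% in the 3 shppp2r1a libraries and 12.6% in scr. Some of these genes are close copies, and the share of 50-base windows of the annotated transcript found unchanged in another gene was 43.3% for Cyp2c68, 23.97% for Cyp2c66, 20.6% for Cyp2c65, 7.45% for Cyp2c38 and 2.08% for Cyp2c29, so how their reads were divided is uncertain to that extent. The promoters of Cyp2c65 and Cyp2c29 are shown because the most abundant Cyp2c gene and the Cyp2c gene with the lowest fitted fold change lie in 1 cluster on chromosome 19. Each is the 250 bases before the annotated start, from RefSeq on GRCm38.p6. Capitals mark CAAAGTCCA, a form of the HNF4 site, in Cyp2c65 (chr19:39060756-39061005, plus strand, first base at -116 from the start) and AGGTCA, a nuclear receptor half-site, in Cyp2c29 (chr19:39286835-39287084, plus strand, first base at -154).
Cyp2c65 promoter: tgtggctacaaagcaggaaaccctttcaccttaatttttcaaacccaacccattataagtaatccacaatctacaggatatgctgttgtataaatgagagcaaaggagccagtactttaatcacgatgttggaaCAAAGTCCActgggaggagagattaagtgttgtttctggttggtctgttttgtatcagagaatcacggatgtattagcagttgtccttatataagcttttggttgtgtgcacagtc
Cyp2c29 promoter: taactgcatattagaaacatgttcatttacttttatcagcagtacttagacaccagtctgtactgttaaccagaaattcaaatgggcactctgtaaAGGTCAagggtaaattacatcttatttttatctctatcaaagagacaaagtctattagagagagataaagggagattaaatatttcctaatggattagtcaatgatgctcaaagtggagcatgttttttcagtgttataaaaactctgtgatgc
Over windows of 300 bases, including 50 after the start, CAAAGTCCA was found on either strand in 4 of the 47 P450 genes with a RefSeq promoter (8.51%; Cyp2c65, Cyp2c67, Cyp2c68 and Cyp3a11) and in 0.555% of all 27025 genes with one, a gene with several listed starts being counted once. Of these, Cyp2c65, Cyp2c67 and Cyp2c68 are related genes of chromosome 19, so the 4 matches are not independent. AGGTCA was found in 8 (17.0%) and 18.1%. The aligned promoters of Cyp2c29 and Cyp2c65 were 56.5% identical, and those of Cyp2c65 and Cyp2c66 77.8%.

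The Cyp2d subfamily split into genes that followed the other drug-metabolising enzymes and genes that were higher in libraries 1 and 2 than in library 3. Cyp2d26, the most abundant, was at 156, 327 and 541 TPM against 713 TPM in scr (log2 fold change -1.25 ± 0.89 SE), below scr in all 3 libraries. Cyp2d22, often set beside human CYP2D6, was at 11.3, 28.4 and 37.2 TPM against 35.7 TPM (-0.67 ± 0.83) and overlapped. Both were lowest in library 1.

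Cyp2d34, in contrast, was at 61.9, 29.2 and 0.43 TPM in shppp2r1a libraries 1, 2 and 3 and 0.38 TPM in scr. Libraries 1 and 2 were 163 and 76.8 times scr, while library 3 was 1.13 times scr, so library 3 resembled scr more than it did the other two (log2 fold change 5.87 ± 2.97 SE). Its counts were 1472, 763 and 11 against 10. DESeq2 called it at an adjusted p of 0.0315, and over all alternatives its adjusted p ran from 3.14e-05 to 0.995. Cyp2d10 was at 19.1, 11.7 and 1.69 TPM against 2.73 TPM, and Cyp2d9, a testosterone hydroxylase of male mouse liver, at 13.6, 8.05 and 0.08 TPM against 0.67 TPM. In both, libraries 1 and 2 were above scr and library 3 was below it. Cyp2d12 at 2.95, 1.7 and 0 TPM and Cyp2d11 at 1.34, 0.35 and 0 TPM had no counts in library 3 or in scr. Cyp2d13, a transcribed pseudogene, was at 0.62, 0.68 and 0.08 TPM with no counts in scr. Against a floor of 3 counts in scr, the mean of the shppp2r1a libraries was at least 10.04-fold higher for Cyp2d12, 3.47-fold for Cyp2d11 and 3.18-fold for Cyp2d13, bounds that cover counting error only.

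Across the 8 Cyp2d genes, 6 were fitted above scr and 2 below, the same split with each of the scalings and both other tools. Of all 15246 genes tested, 8150 were fitted above. Of the 6, Cyp2d11, Cyp2d12 and Cyp2d13 met the count rule only in libraries 1 or 2. In library 3 Cyp2d9 and Cyp2d10 were below scr and Cyp2d11 and Cyp2d12 at 0, so the split rests mainly on libraries 1 and 2. The median log2 fold change of the 8 was 4.44, or 1.73 with genes without scr counts set at their bounds. Cyp2d34 stood at 0.397, 0.0893 and 0.000795 of the Cyp2d26 level in libraries 1, 2 and 3 and at 0.000533 in scr. Relative to Cyp2d9, Cyp2d34 stood at 4.54, 3.63 and 5.38 and at 0.567 in scr. In libraries 1 and 2 it thus kept a closer ratio to Cyp2d9 than to Cyp2d26. The other 2 ratios to Cyp2d9 rest on few counts, 11 over 2.09 in library 3 and 10 over 18.2 in scr. Cyp2d10 stood at 1.40, 1.46 and 21.1 of Cyp2d9 and at 4.07 in scr. The 7 large bowel markers in the table (of 8 listed) summed to 2481, 1179.8 and 264 TPM against 423 TPM, and of these Car1 and Aqp4 (239, 61.5 and 1.83 TPM against 1.32 TPM) had the same order of libraries as Cyp2d34, Car1 being at 0 in scr. The other 5 (Aqp8, Slc26a3, Car4, Tmigd1 and Slc37a2) were higher in scr than in library 3, and Slc37a2 and Tmigd1 were lower in library 1 than in scr. The part of bowel segment in these levels was not tested. The 10 liver markers summed to 86.9, 43.8 and 17.4 TPM against 23.4 TPM. Most of the sum came from Hp and Tat in libraries 1 and 2. In library 3 and scr, Hp was at 2.05 and 1.28 TPM and Alb was the highest of the 10. The markers other than Hp and Tat, Alb among them at 0.1, 6.82 and 7.57 TPM against 11.1 TPM, were below scr in all 3 libraries. They were lowest in library 1, where Cyp2d34 was highest. The part of liver-type expression in these levels was not tested.

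The Cyp2d genes lie in 1 run on chromosome 15, in which Cyp2d22 comes near 1 end, Cyp2d26 last at the other, and Cyp2d11, Cyp2d10, Cyp2d9, Cyp2d12, Cyp2d34 and Cyp2d13 follow one another between them, apart from pseudogenes. The share of 50-base windows found in another gene was 40.5% for Cyp2d10, 37.2% for Cyp2d11, 29.04% for Cyp2d9 and 13.7% for Cyp2d34. Promoters of 250 bases are shown to set Cyp2d9 and Cyp2d10 beside Cyp2d26, again from RefSeq on GRCm38.p6. Capitals mark CAAAGG, the core of a TCF/LEF site, in Cyp2d9 (chr15:82452127-82452376, plus strand, first base at -50) and Cyp2d10 (chr15:82407195-82407444, minus strand, at -53), and GTTAAT, an HNF1 half-site found here on the other strand, in Cyp2d26 (chr15:82794246-82794495, minus strand, at -90).
Cyp2d9 promoter: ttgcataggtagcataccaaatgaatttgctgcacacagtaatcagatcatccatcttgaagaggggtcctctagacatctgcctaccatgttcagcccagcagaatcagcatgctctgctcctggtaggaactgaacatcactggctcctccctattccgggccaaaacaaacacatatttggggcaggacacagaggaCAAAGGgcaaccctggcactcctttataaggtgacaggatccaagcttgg
Cyp2d10 promoter: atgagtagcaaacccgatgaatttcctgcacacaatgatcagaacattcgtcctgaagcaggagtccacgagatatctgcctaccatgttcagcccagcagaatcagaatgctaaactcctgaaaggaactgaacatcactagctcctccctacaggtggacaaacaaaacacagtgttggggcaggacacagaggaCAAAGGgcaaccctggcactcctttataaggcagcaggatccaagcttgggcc
Cyp2d26 promoter: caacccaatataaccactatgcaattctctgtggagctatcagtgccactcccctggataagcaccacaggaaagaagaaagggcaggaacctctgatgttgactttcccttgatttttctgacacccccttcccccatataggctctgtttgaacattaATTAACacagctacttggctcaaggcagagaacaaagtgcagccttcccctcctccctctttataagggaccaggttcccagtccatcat
The promoters of Cyp2d9 and Cyp2d10 were 83.3% identical and those of Cyp2d9 and Cyp2d26 53.6%. CAAAGG was found in 23 of the 47 P450 genes (48.9%) and in 22.8% of all genes, and it was present in genes of either pattern, such as Cyp2d9 and Cyp3a11. Close relatives such as Cyp2d9 and Cyp2d10 were counted separately, so the matches are not independent. GTTAAT was found in 5 (10.6%) and in 8.24%. Of 10 motifs searched on both strands, the remaining ones were these. The CDX motif TTTATNG was found in 14.9% of P450 genes and 12.5% of all genes. The motif of GATA factors, written AGATAA, was found in 17.0% and 12.7%. The sterol regulatory element TCACNCCAC was found in 2.13% and 1.44%. The full HNF1 site, which contains the half-site above, and CAAAGTTCA, a second form of the HNF4 site, were found in none of the 47 P450 genes and in 0.074% and 0.448% of all genes. The tenth, GCGTG, is given with Cyp1a1. A match of letters is a description of the sequence and not a measured binding site.

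**Figure D3:**
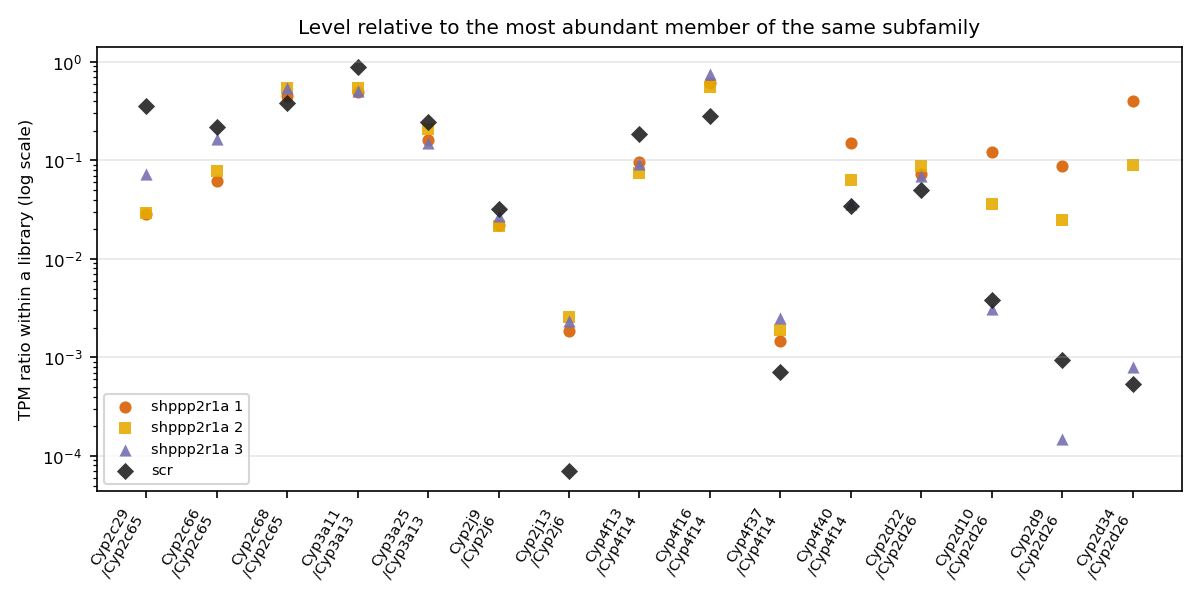
TPM of 15 P450 genes divided by that of the most abundant gene of their subfamily in the same library, on a log axis. Each symbol is 1 library. Cyp2c29, Cyp3a11 and Cyp4f13 sit lower in the 3 shppp2r1a libraries than in scr, Cyp2j13 and Cyp4f16 sit higher, and Cyp2d34 and Cyp2d9 are spread over the widest range of the ratios plotted.

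Cyp2b10, the gene most used as a readout of the constitutive androstane receptor in mouse, was at 57.5, 134 and 257 TPM in shppp2r1a libraries 1, 2 and 3 and 364 TPM in scr (log2 fold change -1.45 ± 0.97 SE). All 3 libraries were below scr. Cyp2b9 held at most 14 counts in a library and none in scr.

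The Cyp2j genes, which make epoxides from arachidonic acid, did not move as a block. Cyp2j6, the enteric member, was at 204, 444 and 666 TPM against 425 TPM in scr (-0.15 ± 0.96 SE), with library 1 below, library 2 near and library 3 above scr. Cyp2j9 was at 4.48, 9.59 and 18.3 TPM against 13.7 TPM, with libraries 1 and 2 below and library 3 above scr. Cyp2j13 was at 0.38, 1.14 and 1.55 TPM against 0.03 TPM, on counts of 25, 83 and 111 against 2, a ratio of 31.4 with an exact 95% binomial interval of 8.58 to 261. Cyp2j11 had the reverse pattern, with 0, 0 and 1 counts against 17, and scr was 59.4 times the shppp2r1a level (9.3 to 2480.4). For these low genes the 3 shppp2r1a libraries lay on 1 side of scr, and the intervals cover counting error only. Relative to Cyp2j6, Cyp2j13 stood at 0.00187, 0.00256 and 0.00233 in the 3 libraries and 7.06e-05 in scr, a ratio that varied little among the 3. Cyp2j5 and Cyp2j8 stayed under 0.5 TPM.

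Of the remaining drug-metabolising genes, Cyp2e1, which oxidises ethanol, was at 4.17, 1.75 and 2.9 TPM against 1.82 TPM (0.38 ± 0.62 SE) and overlapped. Cyp2a12, a steroid hydroxylase of mouse liver, was at 0.08, 0.34 and 4.38 TPM against 1.06 TPM, with library 3 above scr and the others below. Over the 31 genes of the drug and xenobiotic group, 21 were fitted below scr and 10 above, with a median of -0.58 beside 0.06 over all genes, and 13 had all 3 libraries below scr (41.9%, against 27.7% of all genes) and 4 above (12.9%, against 31.8%). The group was lower by this median under each setting run, from -0.27 without library 1 to -1.62 without library 3.

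**Figure D4:**
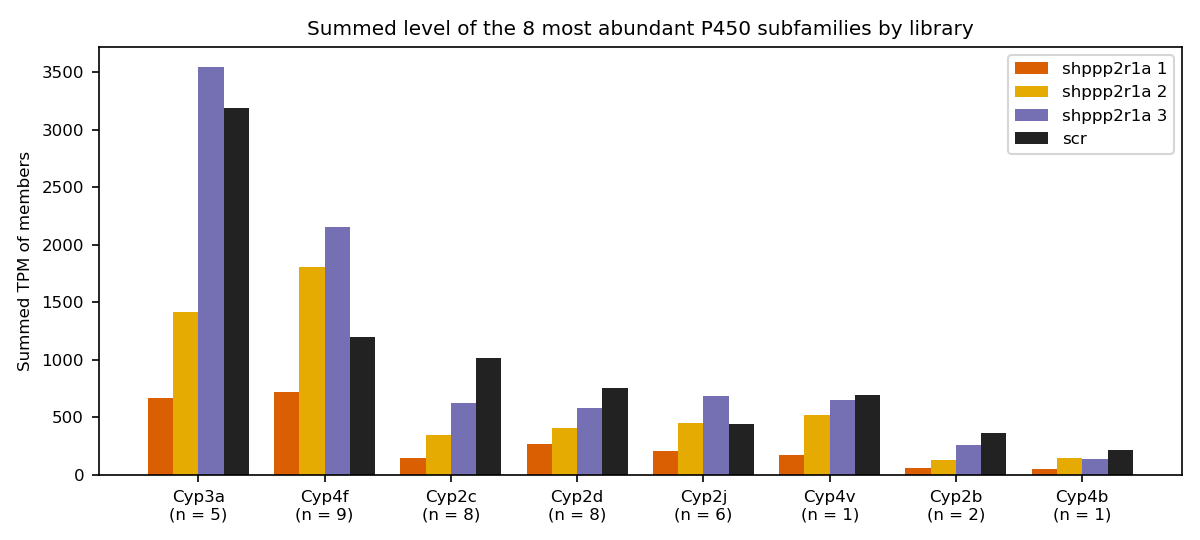
Summed TPM of the 8 most abundant P450 subfamilies in each library, with the number of genes in each. Cyp3a, Cyp4f and Cyp2j were highest in shppp2r1a library 3, and Cyp2c, Cyp2d, Cyp2b, Cyp4v and Cyp4b were highest in scr.

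Among the fatty acid and leukotriene hydroxylases, the Cyp4f genes summed to more in libraries 2 and 3 than in scr. Cyp4f14, which hydroxylates leukotriene B4 at its end carbon, was at 383, 1061 and 1143 TPM in shppp2r1a libraries 1, 2 and 3 and 793 TPM in scr (-0.08 ± 0.94 SE), with libraries 2 and 3 above and library 1 below. Cyp4f16 was at 236, 589 and 856 TPM against 225 TPM (1.13 ± 1.05), with library 1 near scr and libraries 2 and 3 at 2.62 and 3.81 times its TPM. Cyp4f13 was at 37.2, 79.7 and 106 TPM against 147 TPM (-1.18 ± 0.76), below scr in all 3. These 3 genes of a single subfamily therefore differed in where scr fell.

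The ratio of Cyp4f16 to Cyp4f13 within a library was 6.35, 7.38 and 8.08 in the shppp2r1a libraries and 1.53 in scr. Relative to Cyp4f14, Cyp4f16 was at 0.617, 0.555 and 0.749 against 0.284, and Cyp4f13 at 0.0971, 0.0751 and 0.0927 against 0.185. For each of these ratios the 3 shppp2r1a libraries lay on 1 side of scr. Cyp4f37, a low gene, followed Cyp4f16 at 0.56, 1.99 and 2.89 TPM against 0.56 TPM, but 21.7% of its 50-base windows and 26.5% of those of Cyp4f16 occur in another gene, so reads of one may have been given to the other. These ratios were picked out of 33 to the most abundant gene of a subfamily and from 9 further pairs after their values were seen. Of the 33, all 3 shppp2r1a libraries were below scr in 12, above in 11 and on both sides in 10.

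Cyp4f40 was at 57.3, 66.6 and 41.6 TPM against 27.2 TPM (0.72 ± 0.34 SE), above scr in all 3 libraries, with library 3 the lowest of the 3. Cyp4f18, the leukotriene B4 hydroxylase of mouse neutrophils, was at 5.83, 3.97 and 1.56 TPM against 2.85 TPM (0.03 ± 0.68), and it was highest in libraries 1 and 2, where the neutrophil marker S100a8 was at 442 and 438 TPM, compared with 6.93 TPM in library 3 and 0 in scr. The part of neutrophils in this level was not tested. Cyp4f15, Cyp4f17 and Cyp4f39 stayed under 1 TPM. Over the 9 Cyp4f genes, 6 were fitted above scr and 3 below with TMM scaling, beside 8150 and 7096 of all 15246 genes tested. The split was 5 and 4 with RLE factors, and 7 and 2 with library size alone. The Cyp4f share of P450 TPM was 29.3, 33.5 and 24.4% against 14.9% in scr, higher in all 3.

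Cyp4v3, the mouse counterpart of a human fatty acid hydroxylase whose loss causes a retinal dystrophy, was at 177, 525 and 651 TPM against 699 TPM (-0.82 ± 0.97 SE). Cyp4b1, which acts on fatty acids and activates several lung toxins, was at 53.5, 147 and 136 TPM against 214 TPM (-1.15 ± 0.75). Both were below scr in all 3 libraries and lowest in library 1. Cyp4a10, a fatty acid hydroxylase induced through PPARα, was at 0.74, 1.85 and 6.27 TPM against 12.2 TPM (-2.18 ± 1.24), also below scr in all 3. Cyp4a32 had no counts in any shppp2r1a library and 19.3 in scr, where its level was at least 22.1-fold higher, taking 3 counts over the 3 shppp2r1a libraries together as the floor. Of its 50-base windows, 46.8% occur in another gene.

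Cyp1a1, the classic target of the aryl hydrocarbon receptor, was high in 1 library only. It was at 1.86, 4.06 and 32.1 TPM in shppp2r1a libraries 1, 2 and 3 and 3.23 TPM in scr, so that library 3 was 9.94 times scr and the other two lay on either side of it (log2 fold change 1.88 ± 2.04 SE). Without library 3 the fitted value was -0.49. Cyp1b1, the other inducible gene of family 1, was at 0.49, 0.9 and 0.69 TPM against 0.39 TPM (0.57 ± 0.70), above scr in all 3 by TPM but not by TMM-scaled CPM. Ahr, the receptor itself, was at 5.09, 5.44 and 7.35 TPM against 6.79 TPM, and its repressor Ahrr and its target Tiparp were at 0.45, 0.29 and 0.57 against 0.63 and 17.8, 20.3 and 21.03 against 24.1 TPM, without the peak in library 3 that Cyp1a1 had. The Cyp1a1 promoter is shown because the core of the receptor's response element, GCGTG, occurs in it, marked in capitals (chr9:57697363-57697612, plus strand, first base at -54, RefSeq on GRCm38.p6).
Cyp1a1 promoter: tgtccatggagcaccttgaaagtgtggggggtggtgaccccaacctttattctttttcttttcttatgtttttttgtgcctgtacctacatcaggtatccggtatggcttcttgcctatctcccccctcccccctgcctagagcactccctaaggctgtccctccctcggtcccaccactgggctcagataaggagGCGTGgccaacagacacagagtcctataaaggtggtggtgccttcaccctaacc
GCGTG was found in 14 of the 47 P450 genes (29.8%) and in 35.2% of all genes.

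The P450 genes of sterol and bile acid synthesis showed small differences that overlapped in most cases. Cyp51, the lanosterol demethylase of cholesterol synthesis, was at 84.2, 51.2 and 30.2 TPM against 47.2 TPM (-0.14 ± 0.47 SE), with library 1 above and library 3 below scr. Srebf2, the regulator of that pathway, had the same order at 59.3, 40.6 and 21.03 TPM against 28.9 TPM. Cyp27a1, the mitochondrial sterol hydroxylase of the acidic bile acid route, ran the other way among the shppp2r1a libraries, at 19.3, 39.8 and 58.05 TPM against 35.5 TPM (-0.06 ± 0.81). Cyp7b1, which hydroxylates oxysterols, was at 3.04, 0.82 and 0.61 TPM against 0.55 TPM (1.01 ± 1.02), above scr in all 3 and mainly in library 1. Cyp39a1, another oxysterol hydroxylase, was at 4.96, 2.32 and 0.95 TPM against 1.54 TPM (0.43 ± 0.82) and overlapped. Cyp7a1, the rate-limiting enzyme of bile acid synthesis in liver, was at 0 in all 4 libraries, where 0 counts allow up to a CPM of 0.104 to 0.121.

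The steroid hormone genes were near the limit of detection. Cyp11a1, which cleaves the side chain of cholesterol, was at 1.03, 0.38 and 0.14 TPM against 0.07 TPM on counts of 27, 11 and 4 against 2, a ratio of 6.01 (exact 95% binomial interval 1.56 to 51.3). The interval pools the counts of the 3 shppp2r1a libraries and covers counting error only. The fitted log2 fold change was 2.45 ± 1.41 SE. Cyp21a1, the steroid hydroxylase of the adrenal cortex, was at 1.69, 1.09 and 0.03 TPM with no counts in scr, at least 7.36-fold above the level of 3 scr counts, and 23.7% of its 50-base windows occur in another gene. Both were highest in library 1 and lowest among the 3 in library 3. Cyp17a1 was at 0.26, 1.04 and 0.27 TPM against 0.72 TPM and overlapped. Of the 4 adrenal cortex markers listed, Hsd3b1 and Mc2r were at 0 in all libraries other than library 2, where they were at 0.04 and 0.12 TPM. Star was at 0.61, 0.82 and 1.19 TPM against 0.76 TPM and Akr1b7, which is made in other tissues as well, at 24.8, 53.9 and 173 TPM against 154 TPM, both highest in library 3. Cyp11b1, Cyp11b2 and Cyp19a1 were at 0 in all 4.

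Cyp2r1, the liver hydroxylase that makes the circulating form of vitamin D, was at 0.25, 0.61 and 1.72 TPM against 3.39 TPM (-2.26 ± 1.17 SE), below scr in all 3 libraries. Vdr, the vitamin D receptor, was also below scr in all 3, at 60.1, 101 and 135 TPM against 206 TPM (-1.28 ± 0.69). Cyp24a1, the enzyme of vitamin D breakdown, was at 0 in all 4 libraries, and Cyp27b1 held 4 counts in library 1 and 0 elsewhere. Cyp26b1, which clears retinoic acid, was at 0.63, 1.02 and 0.86 TPM against 0.14 TPM (2.34 ± 0.76), above scr in 3 of 3 libraries with a narrow spread among them, at an unadjusted p of 0.0324 and an adjusted p of 0.782 in edgeR (0.137 to 1.0000 over the alternatives). Its relative Cyp26a1 held at most 4 counts in a library.

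Of the other members, Cyp20a1, an orphan enzyme with no settled substrate, was at 13.7, 6.18 and 3.6 TPM against 2.73 TPM (1.14 ± 0.69 SE), above scr in all 3 libraries and highest in library 1. Cyp2s1, an epithelial enzyme of gut, lung and skin, was at 17.97, 34.3 and 41.7 TPM against 49.6 TPM (-0.88 ± 0.66), below scr in all 3. Cyp2u1, which hydroxylates long-chain fatty acids, was at 1.27, 4.03 and 2.83 TPM against 5.44 TPM (-1.24 ± 0.78), below scr in all 3. Cyp2w1, known from fetal gut and from human colorectal tumours, held 10, 11 and 0 counts against 1, a ratio of 6.01 with an exact 95% binomial interval of 0.967 to 249 that includes 1.

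Because the enterocyte markers and the P450 sum were lowest in the same library, each gene was also set to 10000 TPM of the 10 summed enterocyte markers of its library, a denominator chosen after these values were known. On this scale the 3 shppp2r1a libraries were all below scr for 13 of the 59 genes (2.51% of all genes tested were) and all above it for 22 (56.5% of all genes were). The denominator was 0.242, 0.612 and 0.995 of scr in libraries 1, 2 and 3. Dividing by it raises every gene in libraries 1 and 2 relative to scr, so these shares of all genes are no neutral baseline. Most of the sum came from Apoa4 and Fabp2, which differed in library 2, at 11402 against 35720 TPM in scr and 22942 against 22531 TPM. Cyp2c29 stood at 1.29, 1.18 and 3.002 TPM per 10000 in libraries 1, 2 and 3 and at 21.4 in scr. Cyp2b10 stood at 29.5, 27.2 and 32.03 against 45.1, and Cyp2c65 at 45.5, 40.4 and 41.3 against 60.3. Cyp3a11 at 102, 89.4 and 135 against 164 and Cyp2d26 at 79.9, 66.2 and 67.3 against 88.3 also remained below scr. For these genes the spread among the shppp2r1a libraries was much narrower than in TPM, and scr still lay above all 3.

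Cyp4f16 was the opposite case, at 121, 119 and 107 TPM per 10000 in the 3 shppp2r1a libraries and 27.9 in scr, so that the 3 nearly coincided and scr lay well below them. Cyp2j6 was at 104, 89.98 and 82.9 against 52.6 and Cyp2j13 at 0.195, 0.231 and 0.193 against 0.00372, both above scr in all 3. Cyp4v3 at 90.9, 106 and 80.99 against 86.6 and Cyp2c68 at 20.5, 21.8 and 22.6 against 23.1 lay near scr. By subfamily, 5 of 8 Cyp2c genes were below scr in all 3 and none above, and 2 of 5 Cyp3a genes below and none above. Of all genes 2.51% were below, but the denominator makes this share no neutral baseline, so no excess is read from it. Of the 9 Cyp4f genes 6 were above and none below, near the 56.5% of all genes that were above. The distal ileum marker Fabp6 set scr apart from the 3 shppp2r1a libraries, as Cyp2c29 and Cyp4f16 did on this scale. Slc10a2, the other distal ileum marker, was below scr in all 3 but varied widely among them. The part of bowel segment in the P450 levels was not tested.

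Genes that serve or regulate P450 enzymes were read from a list of 42, of which 41 were in the table, 1 of them (Fdx2) under its older symbol Fdx1l, and all 41 were tested. None passed the edgeR test (0 of 41, against 0.0% of all genes), 1 had an unadjusted p under 0.05 (Nqo1), DESeq2 also called none, and 3 of the 41 passed in edgeR without library 3, near the 7.33% of all genes called in that fit. A fitted level below scr was found for 31 and above for 10, and all 3 libraries lay below scr for 21 (51.2%, against 27.7% of all genes) and above for 6 (14.6%, against 31.8%), with a median log2 fold change of -0.44 beside 0.06 over all genes. Por, the oxidoreductase that feeds electrons to microsomal P450, was at 93.3, 172 and 293 TPM against 253 TPM (-0.63 ± 0.86 SE), in the same order as Cyp3a13. Cyb5r3, a cytochrome b5 reductase, was at 179, 358 and 718 TPM against 808 TPM (-1.12 ± 0.99). Fech, which inserts iron into haem, hardly varied at 22.1, 21.6 and 21.8 TPM against 22.9 TPM, and Alas1, the first enzyme of haem synthesis, was above scr in all 3 at 130.1, 129.6 and 123 TPM against 79.95 TPM (0.39 ± 0.37).

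Among the regulators, Nr1i3, the constitutive androstane receptor, was at 15.5, 33.8 and 59.6 TPM against 72.1 TPM (-1.17 ± 0.89 SE), below scr in all 3 and in the same order as Cyp2b10. Nr1i2, the pregnane X receptor, was at 52.9, 71.3 and 86.9 TPM against 72.9 TPM (-0.29 ± 0.54), and its 3 values spread less than those of Cyp3a11. Hnf4g was at 58.3, 153 and 167 TPM against 255 TPM (-1.23 ± 0.81), below scr in all 3, while Hnf4a was at 271, 362 and 376 TPM against 338 TPM (-0.26 ± 0.61). Nr0b2, a target of the bile acid receptor that represses bile acid synthesis, was the lowest of the list relative to scr, at 0.32, 0.64 and 4.72 TPM against 11.3 TPM (-2.68 ± 1.53). These values lie beside those of the enzymes and were not tested as their cause.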

How the data were processed

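Sequencing of total RNA gave 4 libraries, and the analysis began from 1 table of genes. For each library the authors had deposited expected counts, which are estimates and can be fractional, and TPM, in which counts are divided by gene length and set to a fixed total per library. The table's FPKM values and the authors' own columns of fold and of posterior probability of equal expression were not used. The builds mm10 and mm8 and the aligner Bowtie 0.12.2 appear without roles in the submitters' processing notes. How reads were counted, and on which annotation, is not given in the sources used here. Reads shared by near-identical P450 genes may have been divided between them, and 22 of the 59 genes had a count that was not whole.

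Counts were rounded, filtered with filterByExpr (minimum count 10, 15246 of 24444 genes kept) and scaled by TMM. Libraries were compared with edgeR 4.0.16 (R 4.3.3) by its quasi-likelihood test, two-sided, with Benjamini-Hochberg adjustment over all genes tested and a threshold of 0.05. Its residual degrees of freedom come from the 3 shppp2r1a libraries alone, and an exact permutation of 3 against 1 could not go below 0.25. The SE printed with an edgeR log2 fold change was back-calculated. It is the size of that fold change divided by the square root of the test's F statistic. Alternatives were RLE factors, library size alone, no filter, DESeq2 1.42.0, limma 3.58.1 on log2(TPM + 1) and log2(TPM + 0.1), and leaving out each shppp2r1a library. The edgeR and DESeq2 steps were run on simulated data in which the 3 shppp2r1a libraries shared the same mean levels. The real ones did not, so that run does not show how the tests behave on them. Folds against 0 counts used a floor of 3 counts, and ratios with 1 to 3 counts an exact 95% binomial interval.

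The family, its lists and its tests were chosen with earlier results of these data known. Fold changes with SE were given for the 12 genes of highest mean TPM, the 5 largest rises and 5 largest falls (all 3 shppp2r1a libraries on 1 side of scr and at least 30 counts in a library), any gene past the threshold and a list of genes of known role. Other genes named were chosen after their values were seen, among them Cyp2d22, Cyp4f13 and Cyp4f40, for which an SE was given as well. An SE was also given for Ppp2r1a and for some partner and regulator genes. Promoters were matched by symbol to RefSeq (GRCm38.p6) for 47 genes, and sequence sharing was computed on GENCODE transcripts of 57.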

Additional observations from a re-analysis of the deposited data

How the results depend on the processing

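No named gene passed the threshold in the main fit, so no call could be lost under the alternatives. Of 313 values of 35 named P450 genes under them, 285 kept their direction and again did not pass. A further 11 passed the threshold in the same direction. Another 17 changed sign, in 7 genes whose fitted change was small or rested on 1 library. With library size alone the log2 fold changes of Cyp27a1, Cyp2j6, Cyp4f14 and Cyp51 were 0.16, 0.067, 0.15 and 0.27. In limma, Cyp27a1 was 0.0028 and Cyp51 0.10 with a pseudocount of 1, and Cyp51 was 0.10 with 0.1. Cyp4f18 was -0.0040 with RLE factors and -0.0037 in DESeq2. Over the fits without 1 shppp2r1a library, the values ran from -0.49 to 2.41 for Cyp1a1, from -0.63 to 0.32 for Cyp27a1, from -0.75 to 0.24 for Cyp2j6, from -0.12 to 0.78 for Cyp39a1, from -0.48 to 0.32 for Cyp4f14, from -0.26 (-0.06 without replicate 2) to 0.34 for Cyp4f18 and from -0.41 to 0.077 for Cyp51. The cause was not tested.

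DESeq2 called 1 P450 gene and 178 genes in all. Leaving out 1 shppp2r1a library gave from 0 to 13 P450 genes, from 0 to 3 partner and regulator genes and from 0 to 1111 genes in all, the highest without replicate 3. P450 genes with all remaining libraries below scr numbered 22 to 32 (29.4 to 40.8% of all genes) and those above it 11 to 17 (33.5 to 45.8% of all genes). Relative to the enterocyte marker sum, added after the data were seen, they numbered 13 and 22 (2.51 and 56.5% of all genes). No paired analysis was possible because the scr group holds 1 library, so the groups share fewer than 2 replicate numbers. The error on the scr side could not be measured, and ratios that rest on 1 to 3 counts had wide intervals.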
